A study of Homo sapiens with 23 samples.

Results

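The mitosis and G2/M genes described here are 48 listed symbols for proteins of the spindle, the kinetochore, condensin, cytokinesis and the mitotic kinases. They were matched by symbol to the 57875 genes listed for each RNAseq sample, and a single gene was found for each of the 48. RNA was measured in HCT116, a cell line of a human colorectal carcinoma, as wild-type cells and as 4 knockout lines derived from them by CRISPR editing. By their labels, *AGO1* alone was knocked out in 1 line and *AGO2* alone in another, *AGO1* with *AGO2* in the double knockout (*AGO1/2*), and *AGO3* besides in the triple knockout (*AGO1/2/3*). Each line was sampled in 3 replicates, 15 samples in all, and every sample was grown in the same medium with serum. The question of the design is how steady state RNA levels depend on the argonaute proteins, which carry miRNAs to their target RNAs. Each genotype is a single line, so that genotype and line cannot be told apart. The 8 eCLIP samples of the series were not analysed here.

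Entry into mitosis is driven by CDK1 bound to a B-type cyclin, and exit from it by the anaphase-promoting complex, which marks securin and the cyclins for destruction once the spindle checkpoint is satisfied. Most of these genes are transcribed late in the cell cycle under DREAM, B-MYB and FOXM1, so that their RNA is low in resting and G1 cells and high in G2 and mitosis.

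Between 27709971 and 45271146 estimated counts were assigned to genes per sample. Levels are given as CPM, the counts of a gene relative to a library of fixed size, with library sizes scaled by the TMM method of edgeR. Fold changes are on the log2 scale, with a standard error (SE) computed from the estimate and the F statistic of its quasi-likelihood test. Genes were tested by quasi-likelihood in edgeR, with p adjusted after Benjamini and Hochberg, and called at an adjusted p at or under 0.05 among the 22842 genes that passed the filter on low counts. All 48 genes passed it.

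The targeted genes were checked first. *AGO1* was at 138, 108 and 146 CPM in the 3 wild-type samples, at 34.4, 32.1 and 39.5 CPM in *AGO1*, at 35.5, 37.8 and 36.6 CPM in *AGO1/2* and at 35.5, 33.1 and 28.7 CPM in *AGO1/2/3* knockout samples. It was at 160.5, 158 and 161 CPM in the *AGO2* knockout, where it was not targeted. All 9 samples in which *AGO1* was targeted therefore lay below the other 6. *AGO3* was at 112 ± 15.9 CPM (SD, n = 3) in wild-type and at 51.8, 57.4 and 46.1 CPM in *AGO1/2/3* knockout samples, without overlap. It was at 89.4, 78.7 and 99.9 CPM in *AGO1*, 106, 109 and 109.5 CPM in *AGO2* and 103, 114 and 119.5 CPM in *AGO1/2* knockout samples.

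*AGO2* RNA did not mark its own knockouts in the same way. It was at 379, 459 and 382 CPM in wild-type, 334, 364 and 350.4 CPM in *AGO1* and 262, 314 and 283 CPM in *AGO2* knockout samples. It was at 321, 332 and 364 CPM in *AGO1/2* and at 518, 558 and 538 CPM in *AGO1/2/3* knockout samples. The *AGO1/2/3* knockout samples were thus the highest of all 15 for a gene that their label gives as knocked out, although an edited allele can lose its protein and keep its RNA. In what follows, *AGO1/2* and *AGO1/2/3* knockout stand for the libraries labelled so, and the RNA level of *AGO2*, unlike those of *AGO1* and *AGO3*, does not check these labels. The files hold RNA only, so that these values say nothing about loss of the proteins. Against wild-type cells the log2 fold change of *AGO2* was -0.51 in the *AGO2*, -0.26 in the *AGO1/2* and 0.40 in the *AGO1/2/3* knockout, and the second of these was not called. The untargeted *AGO4* was at 21.9, 28.5 and 24.8 CPM in wild-type, 17.1, 16.99 and 26.7 CPM in *AGO1*, 20.3, 10.8 and 15.2 CPM in *AGO2*, 21.9, 33.5 and 33.9 CPM in *AGO1/2* and 69.4, 59.1 and 55.9 CPM in *AGO1/2/3* knockout samples, where it lay above all other samples.

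Colorectal epithelial markers were present in wild-type cells, with *EPCAM* at 205, 211 and 222 CPM, *CDH1* at 84.5, 134 and 74.6 CPM and *CDX2* at 6.86, 9.72 and 8.98 CPM. The keratins *KRT8*, *KRT18* and *KRT19* were at 641, 596 and 688, at 486, 551 and 488 and at 296, 314 and 445 CPM. *CDX1* had 0 counts in all 15 samples and *VIL1* stayed at or below 0.288 CPM, so that these intestinal markers were absent or near absent. Of 6 markers of other cell types, *CD3E* did not pass the filter on low counts, and *PTPRC*, *PECAM1* and *COL1A2* had means between 0.918 and 2.33 CPM in the 5 lines. *COL1A1* was at 24.1, 27.5 and 20.2 CPM in wild-type and 26.7, 23.8 and 25.9 CPM in *AGO1/2/3* knockout samples. The summed level of the 6 markers was 33.1, 35.8 and 29.5 CPM in wild-type, 25.2, 26.4 and 26.0 CPM in *AGO1*, 16.9, 15.7 and 18.3 CPM in *AGO2*, 42.5, 38.7 and 40.7 CPM in *AGO1/2* and 73.8, 77.4 and 94.5 CPM in *AGO1/2/3* knockout samples. *EPCAM* and *CDH1* were at 61.9, 64.0 and 64.8 and at 8.73, 9.21 and 7.76 CPM in the *AGO1/2/3* knockout, where *VIM*, the most abundant of the 6 there, was at 42.7, 49.0 and 64.8 CPM against 4.54, 3.15 and 4.85 CPM in wild-type cells. *CDX2* was called lower there, with a log2 fold change of -0.58. The keratins were not called lower. *KRT8* was called higher in the *AGO1/2/3* knockout with 0.41, and was not without wild-type replicate 2 (0.33), and *KRT18* and *KRT19* were at 0.28 and 0.02 and not called. *KRT8*, *KRT19* and *VIM* were called higher in *AGO1/2* knockout cells, with 0.76, 0.64 and 2.52, and *EPCAM*, *CDH1* and *COL1A1* lower with -0.92, -1.66 and -1.03. *EPCAM*, *CDH1* and *COL1A1* were also called lower in *AGO1* knockout cells, with -0.33, -1.15 and -0.96, and *VIM* higher with 0.94. For the *AGO2* knockout, *EPCAM* was called higher with 0.32, and *KRT18*, *COL1A1* and *VIM* lower with -0.41, -1.17 and -0.76. Of these calls, *EPCAM* (-0.34) and *VIM* (0.78) for *AGO1* and *EPCAM* (0.29) and *KRT18* (-0.37) for *AGO2* did not hold without wild-type replicate 2. These epithelial and mesenchymal differences accompany the differences in mitosis genes between the same lines, and their part in them was not tested.

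In all, 3 libraries stood apart in the 48 genes before any lines were compared. The median log2 ratio of the 48 genes to the wild-type mean was 0.29, -0.60 and 0.30 in wild-type replicates 1, 2 and 3, and 0.39, 0.15 and -0.95 in *AGO1* knockout replicates. It was 0.46, 0.70 and 0.60 in *AGO2* knockout replicates. In the double knockout it was 0.78, -0.14 and 0.32, and in the triple knockout 0.79, 0.68 and 0.80. Wild-type replicate 2, *AGO1* knockout replicate 3 and *AGO1/2* knockout replicate 2 were the low libraries, and within each of these 3 lines a single replicate was lowest for 47 of the 48 genes. That replicate was lowest for 39.5%, 36.0% and 30.2% of all genes tested in the 3 lines, in the same order. The 1 gene that did not follow was *CDC25B* in each of them. A single replicate was lowest for most of the 48 genes in the other lines as well, *AGO2* knockout replicate 1 for 45 and *AGO1/2/3* knockout replicate 2 for 41, but by less. The median log2 ratio to the mean of the other replicates of the line was -0.89, -1.11 and -0.67 in the 3 low libraries, against -0.21 and -0.15 in these 2. The 48 genes took 0.376% of the counts of wild-type replicate 2, against 0.682% and 0.635% in replicates 1 and 3. Their share was 0.293% in *AGO1* knockout replicate 3 and 0.517% in *AGO1/2* knockout replicate 2, and between 0.570% and 0.961% in the other samples.

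**Figure D1:**
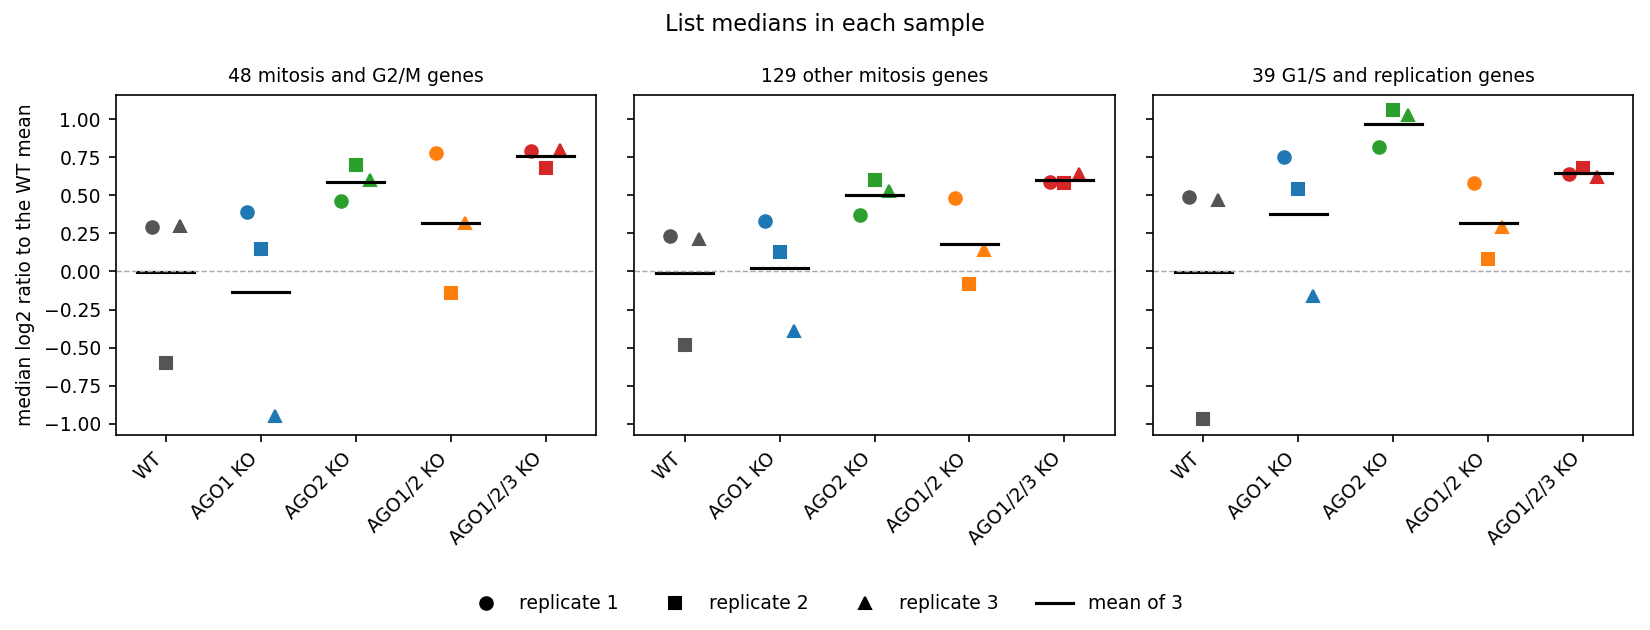
Median log2 ratio to the wild-type mean (vertical axis) in each of the 15 samples, by line (horizontal axis), for the 48 mitosis and G2/M genes, for 129 other genes of mitosis and for 39 G1/S and replication genes; symbols mark the replicate and the bar the mean of 3. The 3 *AGO1/2/3* knockout samples sit between 0.68 and 0.80 for the 48 genes, while wild-type replicate 2 and *AGO1* knockout replicate 3 sit at -0.60 and -0.95.

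The depth of the low libraries lay within the range of the other samples, with 29140175, 30470871 and 28405625 counts. The 10 genes with the most counts took 18.1% of the counts of *AGO1* knockout replicate 3, against 13.6% and 15.4% in replicates 1 and 2, and mitochondrially encoded genes took 10.2%, against 8.60% and 9.33%. In wild-type replicate 2 the 10 leading genes took 14.5%, against 11.8% and 12.9%, and mitochondrially encoded genes 8.34%, against 7.83% and 8.30%. In *AGO1/2* knockout replicate 2 the shares of 14.6% and 8.63% lay between those of the other replicates. The part of these measures in the level of the mitosis genes was not tested. The spread within lines was wide for the 48 genes, with a median standard deviation of 0.43 on the log2 scale against 0.24 for all genes tested. Since the samples are bulk RNA, fewer cells in G2 or mitosis and less RNA of these genes per cell cannot be told apart. Results below are given with all 15 samples first, and then without wild-type replicate 2, or without the 3 low libraries together. The joint omission was chosen after seeing the data, and by the level of the same genes, so that it narrows their spread by its construction and the counts it gives are descriptions only.

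**Figure D2:**
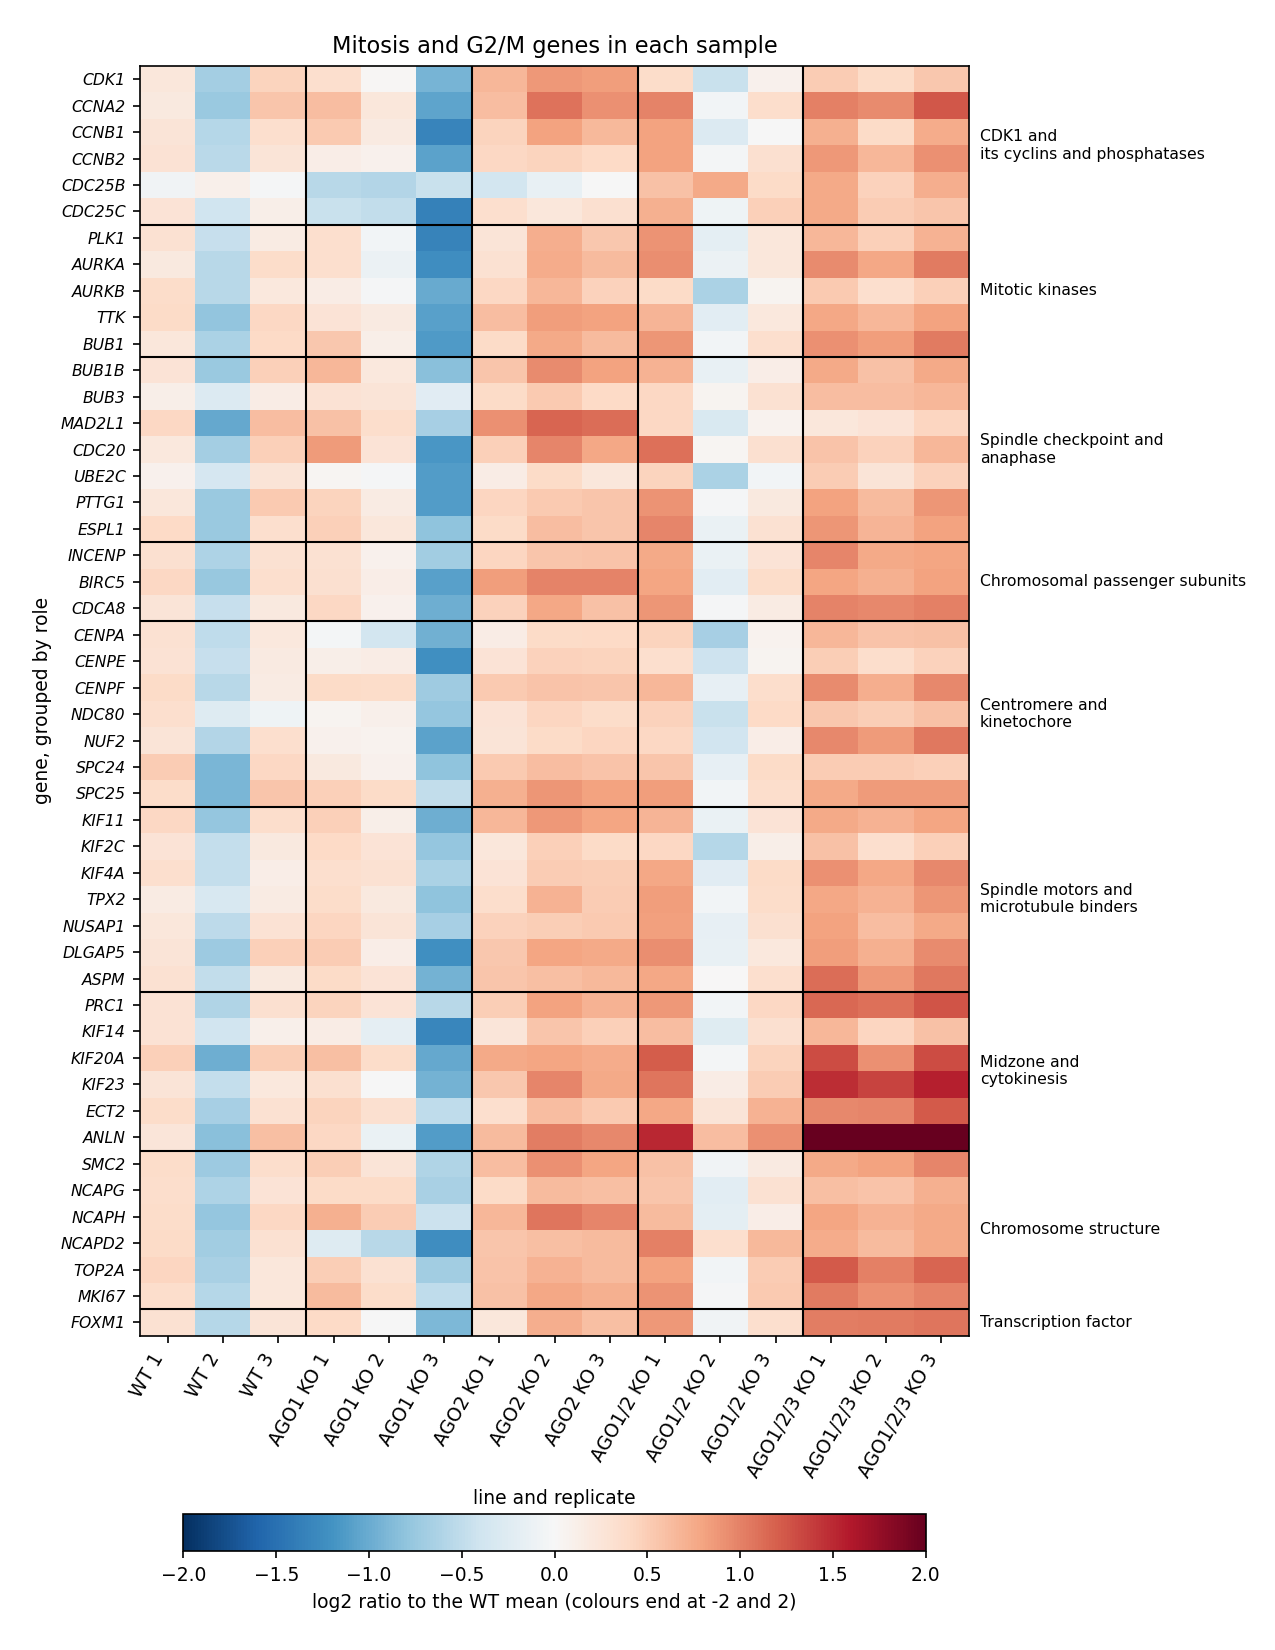
Log2 ratio of each of the 48 genes (rows, grouped by role) to its mean in the wild-type samples, in each of the 15 samples (columns); red is higher and blue lower, and colours end at -2 and 2. Wild-type 2, *AGO1* KO 3 and *AGO1/2* KO 2 are low within their lines in almost every row, and *CDC25B* is the row that does not follow.

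Promoter stretches of these genes are shown as a description, and their part in the differences between replicates was not tested. RefSeq windows of 250 bases before to 50 after the start on GRCh38.p14 were found by symbol for 41 of the 48 genes, and the first window listed was used for each. *AURKA*, *TTK*, *BUB3*, *UBE2C*, *BIRC5*, *TPX2* and *FOXM1* had no entry. The letters TTTGAA, the core of the cell cycle genes homology region (CHR), were searched on both strands and found in 29 of the 41 windows (70.7%), against 15.4% of the 27305 promoter windows of the same length. CCAAT was found in 31 of the 41 (75.6%), against 35.7% of all, and both in 23 (56.1%), against 6.08%. The variant TTCGAA was found in 2 (4.88%), against 1.45% of all. The E2F-like letters TTTGGCGC or TTTCGCGC were found in 2 (4.88%), against 1.18%. None of these motifs contains another. In the 34 windows found for 39 G1/S and replication genes TTTGAA was found in 1 (2.94%), CCAAT in 21 (61.8%) and the E2F-like letters in 9 (26.5%). In the 111 windows found for 129 other genes of mitosis TTTGAA was found in 41 (36.9%), CCAAT in 59 (53.2%), both in 25 (22.5%) and the E2F-like letters in 9 (8.11%). A match is a description of these letters and not a binding site.

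The RefSeq stretches that follow are 30 bases long, are written on the strand of the gene, lie upstream of the start and outside exons annotated in GENCODE v44, and the capitals mark TTTGAA, or its reverse complement TTCAAA. They belong to *CDK1* and to 5 genes called in the *AGO1/2/3* knockout. On GRCh38.p14 the *CDK1* stretch lies at chr10:60778158-60778187 on the plus strand and that of *MKI67* at chr10:128126435-128126464 on the minus strand. The *TOP2A* stretch lies at chr17:40418030-40418059 on the minus strand and that of *ECT2* at chr3:172750599-172750628 on the plus strand. The *ASPM* stretch lies at chr1:197146765-197146794 on the minus strand and that of *KIF4A* at chrX:70290058-70290087 on the plus strand. Matching stretches of *ANLN*, *KIF23*, *PRC1* and *PLK1* overlap an annotated exon and are not shown.
*CDK1*: gagtataataaaTTTGAActgtgccaatgc
*MKI67*: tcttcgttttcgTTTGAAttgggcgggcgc
*TOP2A*: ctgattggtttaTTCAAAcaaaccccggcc
*ECT2*: tcgttgggcttaTTTGAAacacacgcacaa
*ASPM*: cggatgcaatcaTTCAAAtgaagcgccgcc
*KIF4A*: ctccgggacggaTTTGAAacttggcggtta

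In *AGO1/2/3* knockout cells, 20 of the 48 genes were called higher than in wild-type cells, where 20.3% of all genes tested were called higher. By edgeR 0 were called lower, where 19.8% of all genes tested were, and 0 were lower at an unadjusted p under 0.05 or by DESeq2. The median log2 fold change was 0.68 over the 48 genes and -0.01 over all genes tested, and all 48 estimates were above 0. In 43 of the 48 every knockout sample lay above every wild-type sample, which held for 26.3% of all genes tested. The count depended on wild-type replicate 2. Without it, 7 of the 48 genes were called higher, a share below the 17.7% of all genes tested, and the median was 0.41. Without *AGO1/2/3* knockout replicate 1 the count was 12, against 16.8% of all genes, and without replicate 3 it was 10, against 15.4%. Without the 3 low libraries it was 27, against 18.4%, with a median of 0.40. Scaling by total counts only gave 13 genes, against 15.1%, and a median of 0.55, where the median of all genes moved to -0.15. Mitochondrially encoded genes took 7.43%, 6.64% and 6.67% of counts in these knockout samples, below the 7.83%, 8.34% and 8.30% of wild-type samples. All *AGO1* and *AGO1/2* knockout samples lay above wild-type in this share, at 8.52% or more. Its part in the fold changes was not tested.

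**Figure D3:**
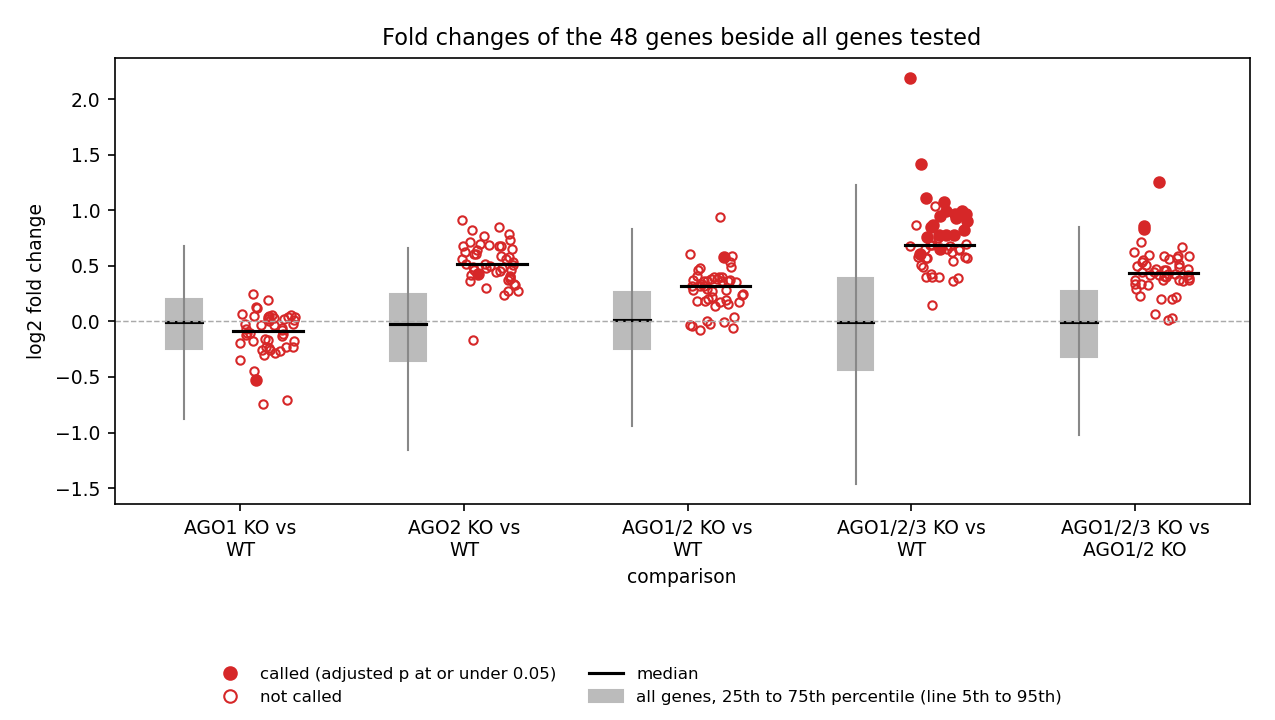
Log2 fold change (vertical axis) of each of the 48 genes in 5 comparisons (horizontal axis), with filled circles for genes called at an adjusted p at or under 0.05, beside grey boxes for all genes tested (25th to 75th percentile, line from the 5th to the 95th). Of the 48 genes, 20 are filled in *AGO1/2/3* KO against WT, where their median is 0.68, and at most 3 in each other comparison.

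The role with the highest median log2 fold change was the midzone and cytokinesis, with 1.08 over 6 genes, of which 4 were called. *ANLN* (ENSG00000011426, chr7:36389821-36453791), which codes for anillin, the scaffold of the contractile ring, was at 191, 90.5 and 247 CPM in wild-type and at 756, 753 and 896 CPM in *AGO1/2/3* knockout samples. The knockout samples were far above the highest wild-type sample, replicate 3. Its log2 fold change was 2.19 (SE 0.37, edgeR adjusted p = 0.000205), and 1.85 without wild-type replicate 2. *KIF23* (ENSG00000137807, chr15:69414246-69448427), a kinesin of the centralspindlin complex, was at 116, 69.6 and 112 CPM and at 269, 246 and 285 CPM. No values overlapped, and the log2 fold change was 1.42 (SE 0.29, edgeR adjusted p = 0.000945). *PRC1* (ENSG00000198901, chr15:90966040-90995629), which bundles antiparallel microtubules at the midzone, was at 137, 74.1 and 140.5 CPM and at 251, 241 and 269 CPM. Wild-type replicate 2 was again the lowest sample and no values overlapped, with a log2 fold change of 1.11 (SE 0.27, edgeR adjusted p = 0.0041). *ECT2*, the exchange factor that activates RhoA for the furrow, was also called, with a log2 fold change of 0.99. The kinesins *KIF20A* and *KIF14* had log2 fold changes of 1.04 and 0.54 and were not called. *ANLN*, *KIF23*, *PRC1* and *ECT2* were called under each of 23 alternatives, the fit without wild-type replicate 2 included. Here and below, the 23 alternatives also include the joint omission of the 3 low libraries, which was chosen by the level of the same genes.

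In chromosome structure, 3 of 6 genes were called. *TOP2A* (ENSG00000131747, chr17:40388525-40417896), the topoisomerase that untangles sister chromatids, was at 302, 144 and 262 CPM in wild-type and at 529, 453 and 507 CPM in *AGO1/2/3* knockout samples. All knockout samples were above all wild-type samples, with a log2 fold change of 1.07 (SE 0.29, edgeR adjusted p = 0.00783), and 0.79 without wild-type replicate 2. *MKI67* (ENSG00000148773, chr10:128096659-128126423), which codes for the Ki-67 protein that coats mitotic chromosomes, was at 949.5, 502 and 872 CPM and at 1539, 1403 and 1484 CPM. The groups did not overlap, with a log2 fold change of 0.93 (SE 0.28, edgeR adjusted p = 0.0138), but it was not called without wild-type replicate 2 (0.67), the 1 of 23 alternatives that ended the call. The condensin subunit *SMC2* was called, with a log2 fold change of 0.76, under 12 of 23 alternatives and not without wild-type replicate 2 (0.46). The condensin I subunits *NCAPG*, *NCAPH* and *NCAPD2* were between 0.57 and 0.65 and were not called.

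*FOXM1* (ENSG00000111206, chr12:2857680-2877174), the forkhead factor that drives late cell cycle transcription, was at 83.6, 45.2 and 80.4 CPM in wild-type and at 136, 138 and 141 CPM in *AGO1/2/3* knockout samples. Its 3 knockout values were nearly equal and above every wild-type value. The log2 fold change was 0.99 (SE 0.30, edgeR adjusted p = 0.0141), and without wild-type replicate 2, the 1 of 23 alternatives that ended the call, it was 0.73.

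Of CDK1 with its cyclins and phosphatases, 3 of 6 were called. *CDK1* (ENSG00000170312, chr10:60778331-60794852), the kinase of mitotic entry, was at 113, 60.5 and 132 CPM in wild-type and at 137, 127 and 140.4 CPM in *AGO1/2/3* knockout samples. Wild-type replicate 3 lay within the knockout range, and the log2 fold change of 0.40 (SE 0.29, edgeR adjusted p = 0.295) was not called and stood at 0.11 without wild-type replicate 2. *CCNB1* (ENSG00000134057, chr5:69167135-69178245), cyclin B1, was at 150.4, 85.1 and 159 CPM and at 207, 165 and 212 CPM. The groups were next to each other without overlap, and the log2 fold change of 0.57 (SE 0.37) was not called, with an edgeR adjusted p of 0.24. *CCNA2* and *CCNB2*, cyclins A2 and B2, were called with log2 fold changes of 0.97 and 0.78, under 8 and 12 of 23 alternatives. Neither was called without wild-type replicate 2 (0.66 and 0.53). Of the phosphatases that activate CDK1, *CDC25B* was called with 0.65, also without that sample (0.68), and *CDC25C* was at 0.58 and not called.

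Of the mitotic kinases, 1 of 5 was called. *AURKA* (ENSG00000087586, chr20:56369389-56392337), the centrosomal Aurora kinase, was at 50.2, 29.99 and 57.0 CPM in wild-type and at 84.9, 75.5 and 90.5 CPM in *AGO1/2/3* knockout samples. The groups did not overlap, and the log2 fold change was 0.87 (SE 0.33, edgeR adjusted p = 0.0481). It was called under 9 of 23 alternatives, and was not called without wild-type replicate 2 (0.62). *PLK1* (ENSG00000166851, chr16:23677656-23690367), the polo kinase, was at 80.9, 47.9 and 73.7 CPM and at 104, 91.2 and 107 CPM. Every knockout sample was above every wild-type sample, yet the log2 fold change of 0.58 (SE 0.34) was not called, with an edgeR adjusted p of 0.19. The checkpoint kinases *BUB1* and *TTK* and the passenger kinase *AURKB* had log2 fold changes of 0.87, 0.65 and 0.40 and were not called.

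**Figure D4:**
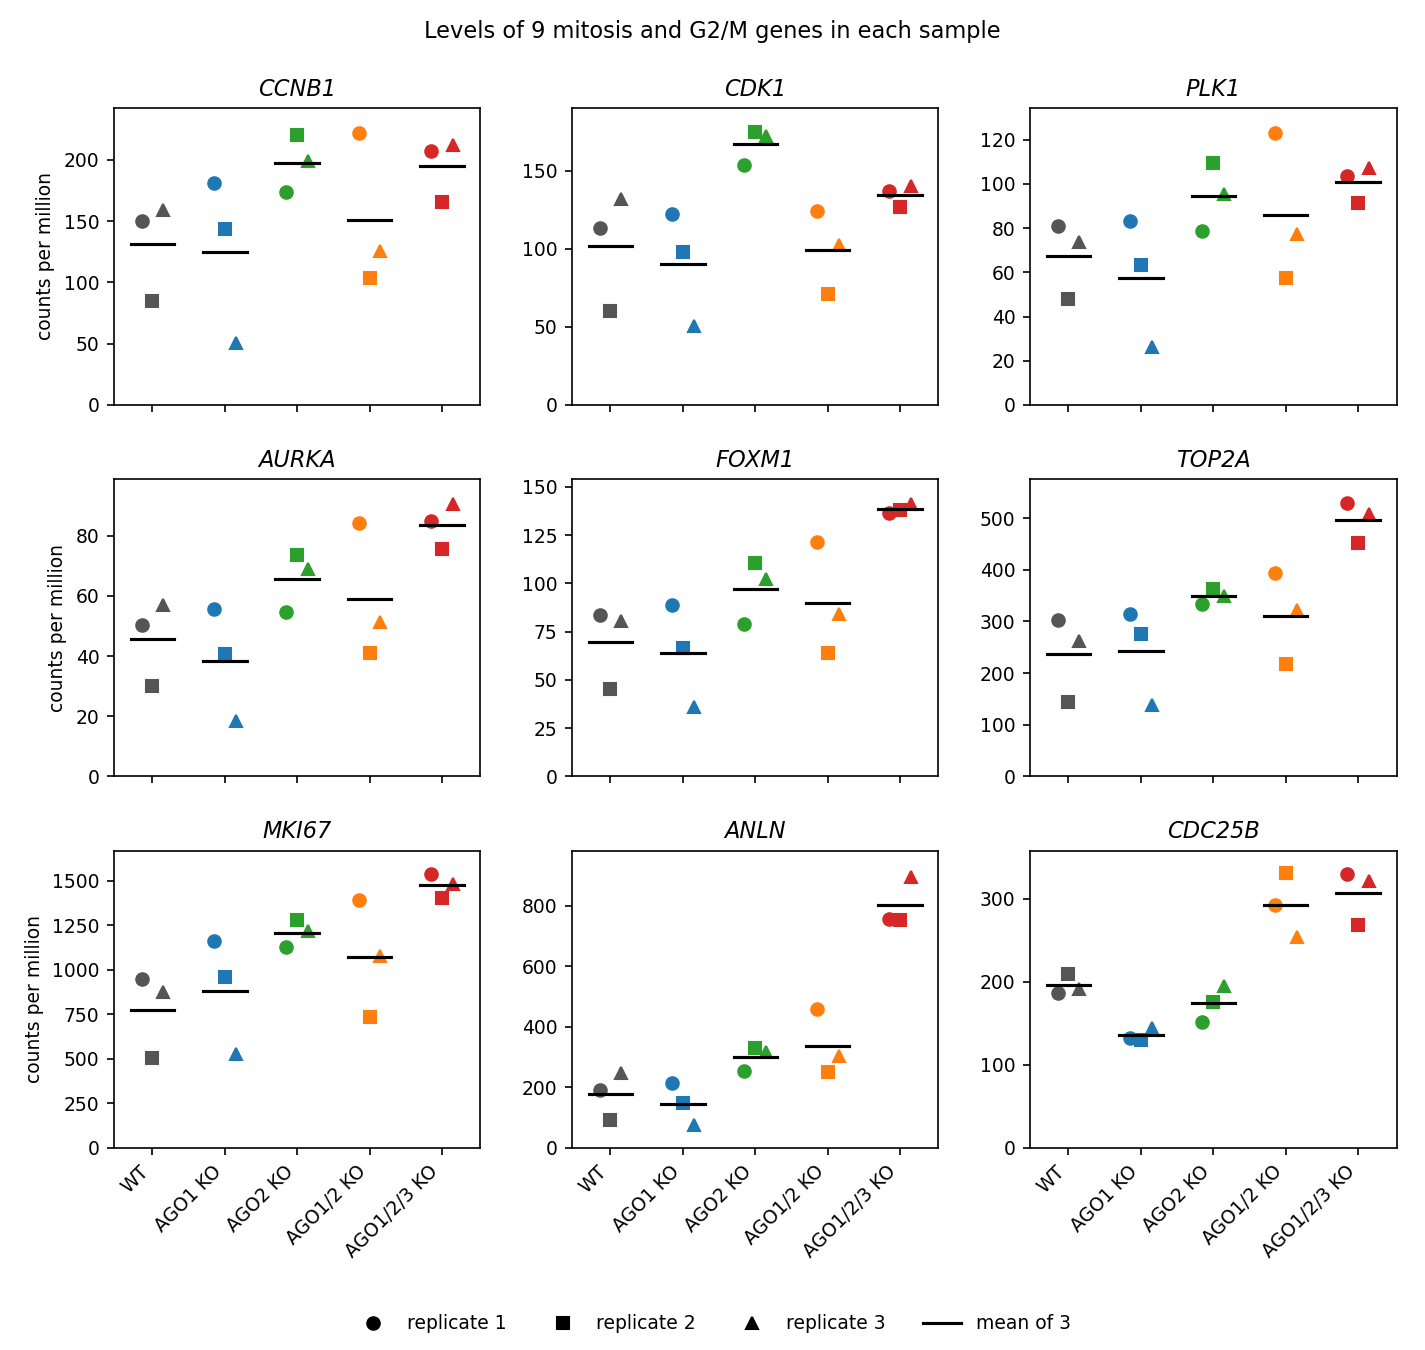
CPM (vertical axes, from 0) of 9 genes in each of the 15 samples, by line (horizontal axes); symbols mark the replicate and the bar the mean of 3. *ANLN* is at 753 to 896 CPM in the *AGO1/2/3* knockout and at most 459 CPM in any other sample, and *CDC25B* is higher in all 6 samples of the *AGO1/2* and *AGO1/2/3* knockouts than in the other 9 samples.

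Of the 3 chromosomal passenger subunits, *CDCA8* (borealin) and *INCENP* were called with log2 fold changes of 0.95 and 0.78, and *BIRC5* (survivin) was at 0.68 and not called. At the centromere and kinetochore, 2 of 7 genes were called, *NUF2* of the NDC80 complex with 0.90 and the kinetochore protein gene *CENPF* with 0.82. The other NDC80 complex genes *NDC80*, *SPC24* and *SPC25*, the centromeric histone gene *CENPA* and the kinesin gene *CENPE* lay between 0.36 and 0.69. Of 7 spindle motors and microtubule binders, *ASPM*, *KIF4A* and *TPX2* were called with 0.97, 0.85 and 0.78. Estimated counts of *KIF4A* may include reads of its near-identical copy *KIF4B*. The bipolar spindle kinesin *KIF11*, the depolymerizing kinesin *KIF2C* and the spindle proteins *NUSAP1* and *DLGAP5* lay between 0.43 and 0.75. None of the 7 called genes of these 3 roles was called without wild-type replicate 2. Their log2 fold changes were then 0.73 for *CDCA8* and *ASPM*, 0.64 for *NUF2* and 0.62 for *KIF4A*. They were 0.61 for *TPX2*, 0.57 for *CENPF* and 0.50 for *INCENP*. *CDCA8* and *NUF2* were called under 21 of 23 alternatives, *ASPM* under 22, *KIF4A* under 20, *TPX2* under 19 and *INCENP* and *CENPF* under 18.

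Of 7 spindle checkpoint and anaphase genes, *BUB3* was called. *BUB3* (ENSG00000154473, chr10:123154402-123170467), a subunit of the checkpoint complex, was at 218, 166 and 223 CPM in wild-type and at 306, 307 and 316 CPM in *AGO1/2/3* knockout samples. Its knockout values lay close to each other and above all wild-type values. The log2 fold change was 0.61 (SE 0.14, edgeR adjusted p = 0.00266) and 0.46 without wild-type replicate 2, still called. The checkpoint genes *BUB1B* and *MAD2L1*, the anaphase-promoting complex activator *CDC20*, its ubiquitin-conjugating enzyme *UBE2C*, the securin gene *PTTG1* and the separase gene *ESPL1* lay between 0.15 and 0.70. *MAD2L1*, which had the lowest estimate of the 48, was at 83.8, 30.7 and 96.7 CPM in wild-type and 73.2, 76.3 and 84.7 CPM in *AGO1/2/3* knockout samples. Its values overlapped, and without wild-type replicate 2 the log2 fold change was -0.23.

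The *AGO1/2/3* and *AGO1/2* knockout lines differ in their labels by *AGO3*. Between them 3 of the 48 genes were called higher, where 11.9% of all genes tested were called higher. By edgeR 0 were called lower, where 10.0% of all genes tested were, and 0 were lower at an unadjusted p under 0.05 or by DESeq2. The median log2 fold change was 0.44, against -0.01 for all genes. *ANLN* was at 459, 249 and 304 CPM in *AGO1/2* knockout samples, all below the *AGO1/2/3* knockout samples, with a log2 fold change of 1.25 (SE 0.36, edgeR adjusted p = 0.0198). *NUF2*, which helps the kinetochore to grip microtubules, was at 42.4, 24.1 and 34.9 CPM in *AGO1/2* and at 61.4, 57.0 and 65.5 CPM in *AGO1/2/3* knockout samples. The groups did not overlap, and its log2 fold change was 0.86 (SE 0.28, edgeR adjusted p = 0.0376). *KIF23* was at 204, 108 and 137 CPM in *AGO1/2* knockout samples, with a log2 fold change of 0.83 (SE 0.28, edgeR adjusted p = 0.046).

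This count moved with single libraries. It was 0 without *AGO1/2* knockout replicate 2 or 3 or without *AGO1/2/3* knockout replicate 3. It was 1 without *AGO1/2/3* knockout replicate 1 or 2, without *AGO1* knockout replicate 2 or without any of the *AGO2* knockout replicates. It was 2 without wild-type replicate 1 or 3, where *KIF23* was not called, and 4 without wild-type replicate 2. It was 6 without *AGO1/2* knockout replicate 1 and 5 without *AGO1* knockout replicate 3. *ANLN* was the gene called wherever the count was 1. The share of all genes called higher ran from 7.77% to 13.2% over these omissions. Without *AGO1/2* knockout replicate 2 the median was 0.24, without replicate 1 of that line it was 0.70, and without the 3 low libraries 7 genes were called, against 11.5% of all genes, with a median of 0.24. Of the cell markers, *EPCAM*, *CDH1* and *KRT19* were called lower between the same 2 lines, with -0.83, -1.85 and -0.62, and *VIM* and *COL1A1* higher with 1.12 and 1.12. In the *AGO1/2* knockout *PLK1* was at 57.5 and 77.1 CPM in replicates 2 and 3, with a mean of 85.8 ± 33.7 CPM (SD, n = 3), and *AURKA* was at 84.2, 41.0 and 51.4 CPM, and replicate 1 was the highest of the 15 samples for *PLK1* and within the *AGO1/2/3* knockout range for *AURKA*.

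In *AGO1/2* knockout cells 1 of the 48 genes was called higher than in wild-type cells, where 8.37% of all genes tested were called higher. By edgeR 0 were called lower, where 8.35% of all genes tested were, and 0 were lower at an unadjusted p under 0.05 or by DESeq2. The median log2 fold change was 0.32, against 0.01 for all genes, and 0.07 without wild-type replicate 2. It was 0.01 without *AGO1/2* knockout replicate 1 and 0.49 without replicate 2. The called gene was *CDC25B* (ENSG00000101224, chr20:3786772-3806121), at 187, 209.8 and 191 CPM in wild-type and 293, 331 and 254 CPM in *AGO1/2* knockout samples. The groups did not overlap, and replicate 2, low for the other 47 genes, was the highest. Its log2 fold change was 0.58 (SE 0.12, edgeR adjusted p = 0.00382). It was called under each alternative. *ANLN* was called as well, for a count of 2, without *AGO1* knockout replicate 3 or without wild-type replicate 3, against 8.32% and 7.87% of all genes.

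*CCNB1* was at 222, 104 and 126 CPM, *CDK1* at 124, 70.9 and 103 CPM and *TOP2A* at 394, 217 and 321 CPM in *AGO1/2* knockout samples. Each of them overlapped the wild-type values, with log2 fold changes of 0.20, -0.04 and 0.40. *MKI67* was at 1393, 736 and 1077 CPM and *FOXM1* at 122, 64.1 and 84.3 CPM, and in both replicate 1 was above every wild-type sample and replicate 2 below wild-type replicates 1 and 3. The log2 fold change of *ANLN* was 0.94 (SE 0.35, edgeR adjusted p = 0.0864), with all 3 knockout samples above all wild-type samples by a narrow margin. It was called without *AGO1* knockout replicate 3, without wild-type replicate 3, without the filter on low counts and without the 3 low libraries.

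In *AGO2* knockout cells 1 of the 48 genes was called higher, where 8.55% of all genes tested were called higher. By edgeR 0 were called lower, where 10.8% of all genes tested were, and 0 were lower at an unadjusted p under 0.05 or by DESeq2. The median log2 fold change was 0.52, against -0.02 for all genes, and 47 of the 48 estimates were above 0. In 31 genes every knockout sample lay above every wild-type sample, which held for 18.5% of all genes tested. The called gene was *BUB3*, at 262, 289 and 265 CPM in *AGO2* knockout samples, all above the wild-type samples, with a log2 fold change of 0.43 (SE 0.14, edgeR adjusted p = 0.0458). The call did not hold, with a count of 0, without any single *AGO2*, *AGO1/2* or *AGO1/2/3* knockout sample or without wild-type replicate 1 or 2, and without wild-type replicate 3 *MAD2L1* was called in its place. Without *AGO1* knockout replicate 3 the number called was 9, where 11.1% of all genes tested were called higher, and without the 3 low libraries it was 5, against 4.43%. DESeq2 called 4 of the 48, where it called 2548 of the 22842 genes tested higher. Without the filter on low counts edgeR called 20, where 2588 of 42905 genes (6.03%) were called higher. That share includes genes of low counts and cannot be compared with the other shares. Without wild-type replicate 2 the median was 0.26. By the file headers, counts of the *AGO2* knockout samples were made in a different mode of quantification, which cannot be told apart from the genotype. These samples were also deep, with 45271146, 44582046 and 40419152 counts. Every other sample except *AGO1/2/3* knockout replicate 1 (40567975) had 32381721 counts or fewer. The part of depth in these fold changes was not tested.

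*CDK1* was at 154, 175 and 172 CPM in *AGO2* knockout samples, the highest of the 5 lines, and all 3 values were above those of all other samples. Its log2 fold change against wild-type cells was 0.71 (SE 0.29, edgeR adjusted p = 0.0944) and was not called. *CCNB1* was at 174, 221 and 199 CPM, above the wild-type values, with a log2 fold change of 0.59. *PLK1* was at 78.6, 109.6 and 95.6 CPM and *AURKA* at 54.6, 73.7 and 68.8 CPM, and the lowest value of each lay within the wild-type range. *TOP2A*, *MKI67* and *FOXM1* were at 334, 363 and 349.6, at 1125, 1279 and 1217 and at 79.0, 111 and 102 CPM, with log2 fold changes of 0.56, 0.64 and 0.48 that were not called. The first and second of these 3 genes did not overlap the wild-type values. *MAD2L1* had the highest estimate of the 48, 0.91 (SE 0.34, edgeR adjusted p = 0.0719), at 119, 141 and 136 CPM. *CDC25B* was the 1 gene below 0, at 152, 176 and 194 CPM with -0.17.

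In *AGO1* knockout cells 0 of the 48 genes were called higher by edgeR, where 3.17% of all genes tested were called higher, and 0 were higher at an unadjusted p under 0.05 or by DESeq2. In the other direction 1 gene was called lower, where 5.5% of all genes tested were called lower. The median log2 fold change was -0.09, against -0.01 for all genes. It was 0.26 without *AGO1* knockout replicate 3, 0.05 and 0.06 without wild-type replicate 1 or 3, -0.34 without wild-type replicate 2, -0.40 without *AGO1* knockout replicate 1 and -0.03 without the 3 low libraries, so that its direction rested on single samples. *CCNB1* was at 181, 144 and 50.7 CPM, *CDK1* at 122, 97.8 and 50.8 CPM and *PLK1* at 83.1, 63.1 and 26.0 CPM in *AGO1* knockout samples. In each of them replicate 1 was above and replicate 3 below the wild-type mean, and replicate 3 was the lowest of all 15 samples. *AURKA* was at 55.6, 40.6 and 18.5 CPM, *TOP2A* at 315, 277 and 138 CPM, *MKI67* at 1164, 959 and 524 CPM and *FOXM1* at 88.6, 66.6 and 35.9 CPM, each spanning the wild-type mean. *ANLN* was at 215, 147 and 74.7 CPM, with a log2 fold change of -0.28.

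The called gene was *CDC25B*, at 133, 130.1 and 144 CPM in *AGO1* knockout samples, all below the wild-type samples. Its log2 fold change was -0.53 (SE 0.12, edgeR adjusted p = 0.0132), and the count was 0 without *AGO1* knockout replicate 1 or 2, against 2.76% and 2.45% of all genes called lower. Without wild-type replicate 2 the count was 3, where 4.9% of all genes were called lower, with *CDC25C* and *NCAPD2* called lower as well. *CDC25C*, chosen after its values were seen, was at 16.4, 10.2 and 14.7 CPM in wild-type and 9.96, 9.57 and 5.27 CPM in *AGO1* knockout samples without overlap, with a log2 fold change of -0.74 (SE 0.23, edgeR adjusted p = 0.0662). *NCAPD2*, a condensin subunit chosen in the same way, was at 292, 138 and 275 CPM and 186, 152 and 93.5 CPM. Its groups overlapped through wild-type replicate 2, and the log2 fold change was -0.71 (SE 0.26, edgeR adjusted p = 0.109).

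*CDC25B* did not share the replicate differences of the other 47 genes in the wild-type, *AGO1* knockout and *AGO1/2* knockout lines. In the *AGO2* and *AGO1/2/3* knockouts *CDC25B* was lowest in the same replicate as most of the 48 genes. It was at 329.8, 268 and 322 CPM in the *AGO1/2/3* knockout, with a log2 fold change of 0.65 (SE 0.12, edgeR adjusted p = 0.000526). All 6 samples of the *AGO1/2* and *AGO1/2/3* knockouts were above the 9 other samples, and between these 2 lines its log2 fold change was 0.07. Its standard deviation within lines was 0.15 on the log2 scale, the lowest of the 48 genes, followed by *BUB3* with 0.19. The widest were *KIF20A* with 0.62 and *CDC20* with 0.60. The 4 comparisons with wild-type cells share the same 3 wild-type samples.

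Compared per length of exon, the 48 genes covered a wide range of levels. In wild-type cells *MKI67* was at 60.3 ± 18.6 and *TPX2* at 59.8 ± 10.8 CPM per kb (SD, n = 3), the highest levels, and did not differ beyond their spread. *CCNB1* at 54.0 ± 16.6 and *CDC25B* at 50.1 ± 3.15 CPM per kb (SD, n = 3) followed within the same spread. *CDK1* was at 26.0 ± 9.47, *PLK1* at 14.2 ± 3.64 and *FOXM1* at 14.2 ± 4.33 CPM per kb (SD, n = 3). *CDC25C* at 4.14 ± 0.96 and *ESPL1* at 5.37 ± 2.03 CPM per kb (SD, n = 3) were the lowest levels. In *AGO1/2/3* knockout cells the level of *ANLN* was 134 ± 13.6 CPM per kb, against 29.4 ± 13.2 in wild-type cells (SD, n = 3). That was the highest level of the 48, ahead of *MKI67* with 115 ± 5.33 and *TPX2* with 102 ± 6.73 CPM per kb (SD, n = 3).

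The 48 genes lie on 19 chromosomes, with 7 on chromosome 1 and 5 on chromosome 15. Tested genes within 5 Mb of each had median log2 fold changes between -0.32 and 0.28 in the *AGO1/2/3* knockout against wild-type cells. After subtraction of these medians, the median of the 48 genes was 0.68 for *AGO1/2/3*, 0.28 for *AGO1/2*, 0.54 for *AGO2* and -0.07 for *AGO1*. The median over the neighbourhoods was 0.01 in the *AGO1/2/3* knockout, where the 48 genes had 0.68.

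Of 129 other genes of mitosis, 57 were called higher and 3 lower in *AGO1/2/3* knockout cells, with a median log2 fold change of 0.58, where 20.3% and 19.8% of all genes tested were called higher and lower. The numbers were 39 and 6 without wild-type replicate 2, where the shares of all genes were 17.7% and 19.0%, and the median was 0.33. The largest rises were 1.67 for *CDC25A*, a phosphatase of cyclin-dependent kinases, and 1.58 for *E2F7*, a repressor of E2F targets. The largest falls were -1.10 for *CDC26*, a subunit of the anaphase-promoting complex, and -0.65 for *E2F4*, a subunit of DREAM. In *AGO2* knockout cells 19 were called higher, where 8.55% of all genes tested were, and the median was 0.47, led by *CDC25A* with 1.23 and the kinetochore gene *ZWINT* with 1.22, and without wild-type replicate 2 only 1 was called, where 2.11% of all genes were, and the median was 0.25. In *AGO1/2* knockout cells 4 were called higher, led by *CEP55* of the abscission bridge with 1.01 and *CDC23* with 0.58, and 1 lower, *CENPT* with -0.66, where the shares of all genes were 8.37% and 8.35%. Without wild-type replicate 2 these counts were 0 and 2, against 6.69% and 7.61% of all genes. In *AGO1* knockout cells the cohesin gene *SMC3* was called higher with 0.45, where 3.17% of all genes were, and was not without that sample. Between the *AGO1/2/3* and *AGO1/2* knockouts 24 were called higher and 2 lower, where the shares of all genes were 11.9% and 10.0%, and 39 and 2 without wild-type replicate 2, against 13.2% and 12.1%.

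For 39 G1/S and replication genes the order of the lines differed from that of the 48 genes. Their median log2 ratio to the wild-type mean was 0.49, -0.97 and 0.47 in wild-type samples and 0.82, 1.06 and 1.03 in *AGO2* knockout samples, above all other samples. It was 0.64, 0.68 and 0.62 in *AGO1/2/3* knockout samples. In *AGO2* knockout cells 15 were called higher, led by *GINS2* of the replicative helicase with 1.26 and *MCM10* with 1.20, against 8 in *AGO1/2/3* knockout cells, led by *CLSPN* with 1.40 and *GINS1* with 1.30. Of all genes tested 8.55% and 20.3% were called higher in these comparisons, so that 8 of 39 is close to the share of all genes. Without wild-type replicate 2 these counts were 2 and 4, where 2.11% and 17.7% of all genes tested were called higher. The median log2 fold change moved from 0.84 to 0.50 in *AGO2* and from 0.50 to 0.16 in *AGO1/2/3* knockout cells. *CCNE2*, cyclin E2, was the 1 gene called in *AGO1* knockout cells, with 1.0, where 3.17% of all genes were called higher. In *AGO1/2* knockout cells edgeR called 0, where 8.37% of all genes were called higher, with 1 at an unadjusted p under 0.05 and 1 called by DESeq2. Between the *AGO1/2/3* and *AGO1/2* knockouts edgeR called 0, where 11.9% of all genes were called higher, with 2 at an unadjusted p under 0.05 and 2 called by DESeq2, and 3 were called without wild-type replicate 2, against 13.2% of all genes. The difference between the lists was not tested.

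The *CDKN1A* to *CDKN1C* and *CDKN2A* to *CDKN2D* genes, for CDK inhibitors that restrain the cycle, were each called higher in the same *AGO1/2/3* knockout samples. With the retinoblastoma gene *RB1* (1.37), 8 of 10 listed genes were called higher, where 20.3% of all genes tested were. Without wild-type replicate 2 all but *CDKN1C* were called, which moved from 0.96 to 0.70. *CDKN2C* (p18) and *CDKN2B* (p15) had the largest rises among them, 2.09 and 1.56, and in the reverse order, 1.65 and 2.38, without that sample. *CDKN1A* and the 2 largest called rises and falls apart, genes were chosen here after their values were seen. *CDKN1A*, which codes for the inhibitor p21, was at 116, 187 and 107 CPM in wild-type and 239, 206 and 209 CPM in *AGO1/2/3* knockout samples. Its wild-type replicate 2, low in mitosis genes, was the highest of that line. The log2 fold change was 0.68 (SE 0.20, edgeR adjusted p = 0.0152), and 0.94 without wild-type replicate 2.

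In *AGO1/2* knockout cells 3 of the 10 listed genes were called higher, where 8.37% of all genes tested were. They were *CDKN2D*, for the inhibitor p19, *RB1*, and *CDKN1B*, for the inhibitor p27, with 0.66, 0.65 and 0.58. *CDKN1A* was at 258, 179.7 and 158 CPM there, with a log2 fold change of 0.54 that was not called. Without wild-type replicate 2 *CDKN1A* was called (0.82) and *CDKN2D* was not (0.50). In *AGO2* knockout cells *CDKN1B* was called higher with 0.39, and *CDKN2B* and *CDKN1A* lower with -2.02 and -0.78. The shares of all genes called higher and lower there were 8.55% and 10.8%. *CDKN1A* was at 75.7, 72.2 and 91.6 CPM in these samples, below every wild-type sample. Of these 3 genes, *CDKN2B* alone was called without wild-type replicate 2, where the values were 0.34 for *CDKN1B*, -1.20 for *CDKN2B* and -0.51 for *CDKN1A*. In *AGO1* knockout cells, where 3.17% of all genes were called higher, *CDKN2A* and the ubiquitin ligase gene *MDM2* were called higher with 0.65 and 0.65. Both were also called without wild-type replicate 2. Without it *CDKN2B* was called higher as well, with 1.30 in place of 0.45, and *CDKN1C* was called lower, with -1.0 in place of -0.76. *CDKN1A* was at 139.7, 131 and 162 CPM there, within the wild-type range.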

How the data were processed

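RNA was sequenced from 15 HCT116 samples, 3 for each of 5 genotypes. The deposited files hold expected counts per gene that the authors estimated with Salmon 0.11.0 after alignment with STAR 2.5.3a, as the labels state. Counts were rounded to whole numbers and fitted with edgeR 4.0.16 in R 4.3.3 over all 15 samples, with a mean per genotype, filterByExpr and TMM scaling. Quasi-likelihood tests were adjusted over 22842 genes by the Benjamini-Hochberg method, and genes were called at an adjusted p at or under 0.05. Log2 ratios of single samples used a prior count of 2. Symbols, positions and exon lengths came from GENCODE v44. Values in every sample are given for *CCNB1*, *CDK1*, *PLK1*, *AURKA*, *TOP2A*, *MKI67* and *FOXM1* and for up to 3 called genes with the largest rise and 3 with the largest fall per comparison, and of the further lists the 2 with the largest rise and fall. The members and lists were chosen with earlier results of these data known. Alternatives were DESeq2 1.42.0 (its test or its size factors), total counts, no filter, at least 10 counts in every sample and the 6 samples compared. A term for the replicate number, the omission of each sample and the joint omission of the 3 low libraries were the others. The joint omission was added after seeing the data. The 8 eCLIP samples were not analysed here.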

Additional observations from a re-analysis of the deposited data

How the results depend on the processing

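Leaving out 1 sample at a time gave 7 to 25 genes called higher in *AGO1/2/3* knockout against wild-type cells, 0 to 6 against *AGO1/2* knockout cells and 1 to 2 in *AGO1/2* knockout cells. It gave 0 to 9 called higher in the *AGO2* knockout, and 0 to 3 called lower in the *AGO1* knockout. The shares of all genes called ran from 15.4% to 20.1%, 7.77% to 13.2%, 5.11% to 8.32%, 1.66% to 11.1% and 2.45% to 5.44% in the same order. Without the filter on low counts these numbers were 35, 5, 3, 20 and 3. Of all genes 4312, 2388, 1738 and 2588 were then called higher and 1328 lower. These are 10.1%, 5.57%, 4.05%, 6.03% and 3.1% of 42905 genes, with genes of low counts that the 22842 leave out. Such shares cannot be compared with those of the filtered genes. With the 6 samples compared alone, 12 genes were called between the triple and double knockouts, against 15.0% of all genes, and 0 each for the *AGO2* and *AGO1* knockouts, against 2.43% called higher and 2.06% lower. Total counts gave 13 in the triple knockout, 0 for *AGO2* and 2 for *AGO1*, against 15.1%, 3.21% and 8.69% of all genes. DESeq2 called 4 in *AGO2* and 2 in *AGO1* knockout cells. Of the 22842 genes tested it called 2548 higher in the *AGO2* and 1415 lower in the *AGO1* knockout. Its shares of 5.94% and 3.3% are over 42905 genes, those of low counts included. A minimum of 10 counts in every sample gave 0 in *AGO2* knockout cells, against 8.82%. The joint omission of the 3 low libraries, chosen after seeing the data by the level of these genes, gave 27, 7, 3, 5 and 3, against 18.4%, 11.5%, 5.45%, 4.43% and 5.02%. It narrows the spread by its construction. For the other settings the cause was not tested.

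A term for the replicate number, as a replicate block, gave 0 in *AGO2* knockout cells and 23 in *AGO1/2/3* knockout cells, 19 of them among the 20, where 7.02% and 20.1% of all genes were called higher. The numbers do not pair the samples, since residuals of samples with the same number had a mean correlation of -0.00669 over 30 pairs, against 0.00333 over 60 pairs with different numbers.

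Estimates of single genes that were not called moved with the setting, and some of them changed sign. With all samples, log2 fold changes in *AGO1* knockout cells were -0.07 for *CCNB1*, -0.17 for *CDK1*, -0.23 for *PLK1* and -0.26 for *AURKA*. They were -0.13 for *FOXM1*, 0.04 for *TOP2A* and 0.19 for *MKI67*. In *AGO1* knockout cells the log2 fold change of *CCNB1* was 0.08 without the 3 low libraries, 0.33 without *AGO1* knockout replicate 3 and 0.05 and 0.09 without wild-type replicates 1 and 3. Without *AGO1* knockout replicate 1 it was -0.44 for *CCNB1* and *FOXM1*, -0.45 for *CDK1*, -0.60 for *PLK1* and -0.63 for *AURKA*. Without *AGO1* knockout replicate 3 it was 0.13 for *CDK1*, 0.14 for *PLK1*, 0.10 for *AURKA* and 0.18 for *FOXM1*, and it was 0.06 for *CDK1* without wild-type replicate 3 and 0.03 for *FOXM1* without wild-type replicate 1. For *TOP2A* it was -0.04 with total counts, -0.19 and -0.04 without *AGO1* knockout replicates 1 and 2 and -0.21 without wild-type replicate 2. For *MKI67* it was -0.06 without *AGO1* knockout replicate 1 and -0.04 without wild-type replicate 2, and without *AGO1* knockout replicate 3 *TOP2A* was at 0.35 and *MKI67* at 0.48. In *AGO1/2* knockout cells *CCNB1* was at -0.21, *PLK1* at -0.03 and *AURKA* at -0.01 without replicate 1 of that line, and *CCNB1* at -0.05 and *CDK1* at -0.32 without wild-type replicate 2. Without replicate 2 of that line *CCNB1* was at 0.40 and *PLK1* and *AURKA* at 0.56. With all samples *CCNB1*, *PLK1*, *AURKA* and *CDK1* were at 0.20, 0.35, 0.36 and -0.04. *CDK1* was at 0.14 without *AGO1/2* knockout replicate 2 and at 0.04 and 0.18 without wild-type replicates 1 and 3. Between *AGO1/2/3* and *AGO1/2* knockout cells *PLK1* was at -0.01 without the 3 low libraries and at -0.00 and 0.58 without *AGO1/2* knockout replicates 2 and 1. With all samples *PLK1* was at 0.23 in this comparison. The cause was not tested.

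Limits: with 3 samples per line and 1 line per genotype, a line that differs for other reasons cannot be told apart from its genotype. The depth of 27709971 counts or more per sample left all 48 genes above the filter. Estimated counts of genes with near-identical copies are uncertain.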
